A study of Mus musculus with 12 samples.

Results

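The complement components and regulators described here are 7 mouse genes, C3, C4b, C1ra, C1s1, Cfb, Serping1 and Cd55, chosen by symbol among the 55487 gene identifiers counted in cultured mesenchymal stromal cells (MSCs). The cells were wild type primary MSCs from the bone marrow of C57BL/6 mice, which the methods give as females of 6 to 8 weeks. PolyA RNA was sequenced from 12 samples in 3 groups of 4. Control samples were untreated, A1 samples received 50 µM of A1 for 6 h, and A1 + OVA samples received 50 µM of A1 together with 1 mg/ml of ovalbumin (OVA), the albumin of chicken egg white, for the same time. A1 is a conjugate of the bile acid cholic acid with the nuclear localization signal of the RNA binding protein hnRNPA1. All cultures were treated at 80% confluency in medium with 10% serum. The labels also name insulin in the medium of the A1 + OVA samples and give no readable dose for it, and no group received OVA without A1, so the A1 + OVA samples compare with A1 samples as a whole treatment.

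Complement is a cascade of plasma proteins that tags surfaces, attracts leukocytes and can perforate membranes. In the classical pathway the proteases C1r and C1s are bound to C1q, where C1r activates C1s, and C1s cleaves C4 and C2. The alternative pathway runs through factor B, and both pathways converge on cleavage of C3. Soluble and membrane inhibitors, among them C1 inhibitor (Serping1) and CD55, limit these steps. The liver makes most circulating components, and fibroblasts and other stromal cells also make some of them locally.

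Only 3 of the 7 genes were detected well enough to be tested, namely C1ra, C1s1 and C3. Each was lower in all 4 A1 samples than in every control sample, and intermediate in the A1 + OVA samples. The share of all tested genes whose groups separate in this way was not counted. A call here is an adjusted p under 0.05 in edgeR's quasi-likelihood test, and calls were common in the whole table. Of 11314 tested genes, 31.1% were called lower and 31.7% higher with A1 than in control samples, 27.9% lower and 29.7% higher with A1 + OVA, and 6.05% higher and 6.81% lower with A1 + OVA than with A1. The median log2 difference over all tested genes was 0.00 for A1 and 0.00 for A1 + OVA against control. The remaining 4 genes, C4b, Serping1, Cfb and Cd55, were at or near 0 counts in every group, so that their direction could not be compared.

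The libraries held 15644991 to 16881995 counts in control samples, 13702348 to 14347870 in A1 samples and 14359973 to 16674294 in A1 + OVA samples. Levels are given as CPM, the counts of a gene scaled to a common library size, with TMM factors, which also correct for composition. At this depth 3 counts, the limit that a count of 0 allows, correspond to 0.177 to 0.229 CPM, a limit that covers counting error only. Among MSC markers 11 of 12 passed the filter on low counts. The exception was Thy1, the gene of CD90, with 0 to 17 counts. Nt5e, the gene of CD73, passed with only 7 to 14 counts. Of 12 macrophage markers 3 passed the filter, Cd68, Cd14 and Mrc1, with Cd14 at 120 to 173 counts, and the summed level of all 12 was 10.7 to 11.9 CPM in control samples, 15.4 to 17.6 with A1 and 12.8 to 15.3 with A1 + OVA. Ptprc, the gene of CD45, reached at most 4 counts and Tyrobp, C1qa, C1qb and C1qc had 0 in all samples. No endothelial marker of 7 passed the filter, and of 7 hepatocyte markers only Fga did, with Alb at no more than 4 counts. In bulk samples, fewer cells of a type and less RNA per cell cannot be told apart.

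The 7 genes lie on 4 chromosomes of GRCm38. C1ra, at chromosome 6, 124512405 to 124523443 on the plus strand, and C1s1, at 124530345 to 124542359 on the minus strand, converge with 6901 bases between them. C3 lies on chromosome 17 at 57203970 to 57228136, C4b at 34728380 to 34743882 and Cfb at 34856374 to 34862518, all on the minus strand. Serping1 lies on chromosome 2 at 84765387 to 84775444 and Cd55 on chromosome 1 at 130439027 to 130462744, both on the minus strand. RefSeq start sites were on hand for 4 of the 7 genes, C3, C1ra, C1s1 and Cd55. The 250 bases before the start site are printed for C3 and C1s1, the members whose windows hold a match to any of the 6 motifs searched. The matches are to motifs of C/EBP and NF-kB, factors known to act on acute phase genes. For C1ra, 216 of the 250 bases lie within its annotated first exon, and they are not printed. The sequences are read 5′ to 3′ on the strand of the gene from RefSeq GRCm38.p6, with motif matches in capitals.
C3, chr17:57228137-57228386, minus strand: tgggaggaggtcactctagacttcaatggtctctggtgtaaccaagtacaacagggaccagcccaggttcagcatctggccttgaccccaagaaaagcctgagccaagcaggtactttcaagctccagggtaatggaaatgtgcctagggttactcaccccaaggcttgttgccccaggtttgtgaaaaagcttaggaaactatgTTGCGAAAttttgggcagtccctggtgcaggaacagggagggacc
C1s1, chr6:124542360-124542609, minus strand: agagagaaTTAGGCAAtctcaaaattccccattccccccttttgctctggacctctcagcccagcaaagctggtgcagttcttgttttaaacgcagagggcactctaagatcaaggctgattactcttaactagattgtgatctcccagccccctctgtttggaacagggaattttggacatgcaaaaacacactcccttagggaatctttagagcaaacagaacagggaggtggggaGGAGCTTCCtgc
In C3 the capitals mark a match to the C/EBP letters TTGCNNAA, which starts 45 bases before the start site. In C1s1 the first capitals are a C/EBP match on the opposite strand, 242 bases before the start site, and the last are a match to the NF-kB letters GGANNTTCC, 12 bases before it. RefSeq holds a second start site of C1s1, at 124542321 within the gene, whose window has no C/EBP match and the same NF-kB match 50 bases before the site. C/EBP letters, searched on both strands, occurred in 9.56% of all 32851 promoter windows of this length and NF-kB letters in 3.59%. The GAS letters TTCNNNGAA, the ISRE core AAANNGAAA, the AP-1 letters TGANTCA and CCAAT were in none of the members' windows, and in 7.02%, 9.37%, 6.75% and 33.8% of all windows. C1ra and Cd55 held none of the 6 motifs, although C1ra also fell with A1. Of the factor genes, Cebpb (log2 difference 0.01, adjusted p = 0.926) and Cebpd (-0.03, adjusted p = 0.862) were not called with A1. Nfkb1 was called lower (-0.22) and Rela higher (0.21). Whether any match bears on a fall was not tested. No match is a tested site.

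C1ra encodes C1r, the protease that activates C1s within the C1 complex. Its level in the 4 control samples was 93.8, 95.9, 96.4 and 89.3 CPM. With A1 it was 55.4, 59.0, 62.7 and 58.8 CPM, and with A1 + OVA 69.9, 72.3, 65.3 and 69.0 CPM. The 3 groups did not overlap. Of all tested genes 31.1% were called lower with A1, and the share whose groups separate in this way was not counted. C1ra fell by 0.67 on the log2 scale with A1 (SE 0.05, adjusted p = 4.09e-11), which is 1.59-fold lower than control. With A1 + OVA it fell by 0.44 (SE 0.05, adjusted p = 2.76e-08), or 1.36-fold. Between the treatments it was 0.23 higher on the log2 scale with A1 + OVA than with A1 (SE 0.05, adjusted p = 0.0027). C1ra shares 35.9% of its 100-base windows with other genes, nearly all of them with its paralog C1rb, which had at most 2 counts in any sample. How reads that match both paralogs were counted is not given in the sources used here.

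C1s1 encodes C1s, the protease that cleaves C4 and C2. It was at 146.0, 162.5, 145.0 and 146.3 CPM in the control samples. In A1 samples it was at 68.1, 72.9, 76.6 and 75.7 CPM, and in A1 + OVA samples at 87.4, 91.8, 89.9 and 102.5 CPM. The second control sample lay above the other control samples, and again no groups overlapped. C1s1 fell by 1.03 on the log2 scale with A1 (SE 0.05, adjusted p = 2.55e-13), 2.04-fold below control and the largest fall among the 3 tested members. With A1 + OVA it fell by 0.69 (SE 0.05, adjusted p = 1.51e-10), or 1.61-fold. It was 0.34 higher with A1 + OVA than with A1 (SE 0.05, adjusted p = 2.38e-04). Only 6.87% of its 100-base windows are shared, with the paralog C1s2, which reached 7 counts at most. An antisense gene, Gm16567, covers 18.4% of its exon bases and had 0 to 11 counts, and the counting was strand-specific.

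C3 is the component on which all complement pathways converge, and its fragments mark targets and signal to leukocytes. Its level was 137.2, 155.3, 165.8 and 149.4 CPM in control samples. It was 86.4, 90.2, 75.9 and 93.9 CPM with A1, and 111.8, 106.2, 120.0 and 133.5 CPM with A1 + OVA. The groups were again separate, although the highest A1 + OVA sample came close to the lowest control sample. C3 fell by 0.81 on the log2 scale with A1 (SE 0.07, adjusted p = 1.38e-09), or 1.75-fold. With A1 + OVA it fell by 0.37 (SE 0.07, adjusted p = 7.82e-05), or 1.29-fold, and it was 0.45 higher than with A1 alone (SE 0.07, adjusted p = 2.38e-04). No 100-base window of C3 is shared with another gene.

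**Figure D1:**
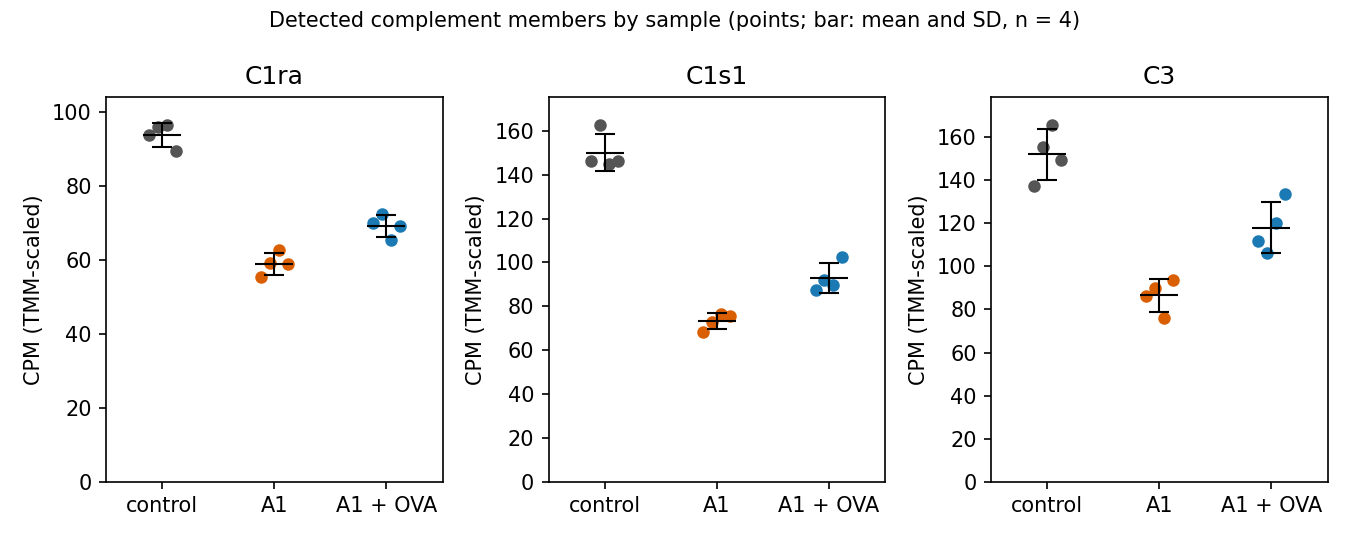
Level of C1ra, C1s1 and C3 in CPM (y axis, from 0) in the control, A1 and A1 + OVA samples (x axis), with 1 point per sample and the mean and SD of 4 samples. For each gene the 4 A1 samples lie below the 4 A1 + OVA samples, which lie below the 4 control samples. The share of all tested genes that separate in this way was not counted.

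C1ra, C1s1 and C3 were thus called lower with A1, lower with A1 + OVA and higher with A1 + OVA than with A1, and these calls stand against the shares of all tested genes given above. The comparisons with control share the same 4 control samples, and all treated samples recur in the comparison between the treatments.

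The 4 members that could not be tested had too few counts for any statement on direction. C4b, the mouse C4 gene whose product is cleaved by C1s, had 2, 6, 0 and 1 counts in control samples, 2, 2, 0 and 0 with A1 and 1 in each A1 + OVA sample. It shares 15.2% of its 100-base windows with C4a, which had 7 to 24 counts and is no protein-coding gene in the annotation. Serping1, which encodes C1 inhibitor, the serpin that inactivates C1r and C1s, had 1 to 3 counts in control samples, 1 to 4 with A1 and 1 to 4 with A1 + OVA. Cfb encodes factor B, the protease of the alternative pathway convertase. It had 0 counts in 11 of 12 samples and 1 count in the third A1 + OVA sample. A second gene model on the same strand, Gm20547, covers 79.5% of the exon bases of Cfb and had 0 counts in all samples, and how reads that fall on both models were assigned is not given in the sources used here. Cd55, whose product speeds the decay of complement convertases on the cell surface, had 0 counts in all 12 samples, as did its paralog Cd55b. With no filter on low counts the adjusted p-values of C4b, Serping1 and Cfb ranged from 0.417 to 1 over 16071 genes, and Cd55 could not be fitted. A fall or a small rise in these 4 genes was not detectable at this depth. Treated samples held at most 4 counts of any of them, so none rose to the level of a tested member.

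Per kilobase of merged exons, a level on which genes can be compared, the control samples held C1s1 at 47.9 ± 2.68 CPM per kb (SD, n = 4), C1ra at 31.5 ± 1.09 and C3 at 29.5 ± 2.32. C1s1 lay above both in every control sample, and C1ra and C3 overlapped. Serping1 followed at 0.053 ± 0.022 CPM per kb and C4b at 0.024 ± 0.027, while Cfb and Cd55 were at 0. Serping1 and C4b overlapped, as did C4b with Cfb and Cd55, and all these levels rest on 0 to 6 counts a sample. The same CPM were also divided by a length shortened by the share of windows in common with other genes. This put C1ra at 49.1 ± 1.70 CPM per kb and C1s1 at 51.5 ± 2.88. The shorter length applies only if reads from shared windows went uncounted, which is not given in the sources used here. With it the ranges of C1ra and C1s1 overlap, while C3 stays at 29.5. The order of C1s1 over C1ra therefore depends on the length used. Over all 7 members, the summed level was 104.9 to 114.4 CPM per kb in control samples, 57.2 to 62.2 with A1 and 73.2 to 82.0 with A1 + OVA. Nearly all of this sum was C1s1, C1ra and C3, so it restates their levels.

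The proteases C1r and C1s act as partners, so their counts were also set against each other within each library, which needs no library size. The ratio of C1s1 to C1ra counts was 1.60 ± 0.085 in control samples (SD, n = 4), 1.24 ± 0.030 with A1 and 1.35 ± 0.11 with A1 + OVA. Control libraries ranged from 1.5 to 1.7, A1 libraries from 1.22 to 1.29 and A1 + OVA libraries from 1.25 to 1.49, so that every treated library lay below every control library. In an exact two-sided permutation test both differences gave p = 0.0286, the smallest p that 4 against 4 samples allow, and 0.0857 after adjustment over the 9 ratio tests, which misses the threshold of 0.05. C1s1 to C3 was 0.991 ± 0.086 in control samples, 0.853 ± 0.10 with A1 and 0.791 ± 0.051 with A1 + OVA, with exact permutation p-values against control of 0.0857 and 0.0286. C1ra to C3 was 0.620 ± 0.045, 0.687 ± 0.093 and 0.592 ± 0.075, and its groups overlapped in all comparisons. None of the 9 tests passed after adjustment. With a smallest p of 0.0286, no ratio could pass unless most of the 9 tests reached it. The adjusted values therefore cannot decide whether the members fell equally, and unequal falls are given as values only.

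**Figure D2:**
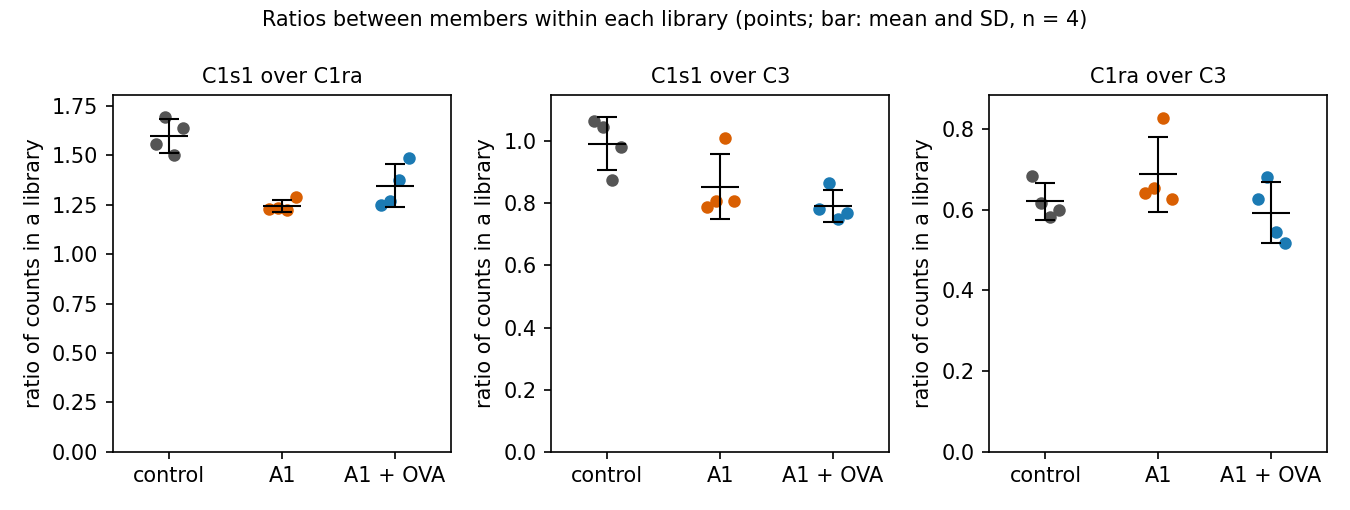
Ratio of the counts of 2 members in the same library (y axis, from 0) for C1s1 over C1ra, C1s1 over C3 and C1ra over C3 in each group (x axis), with 1 point per sample and the mean and SD of 4 samples. The ratio of C1s1 to C1ra lies at 1.5 to 1.7 in control libraries and at 1.22 to 1.49 in treated ones.

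A wider list of 61 complement genes, the 7 members included, shows how much of the cascade these cells transcribed. Of the 61 genes 17 passed the filter and 18 had 0 counts in all samples. Of the lectin pathway genes and collectins, Masp1, Colec10 and Colec12 passed the filter, while Masp2 and Colec11 reached at most 4 counts, Fcna at most 3, and Mbl1, Mbl2 and Fcnb were at 0. C1q, the recognition unit that C1r and C1s bind, was at 0. Of 7 terminal components, which form the membrane attack complex, none passed, with the highest value of 10 counts for C8g. Of 10 membrane regulators 3 passed, Cr1l, Cd59a and Cd46.

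**Figure D3:**
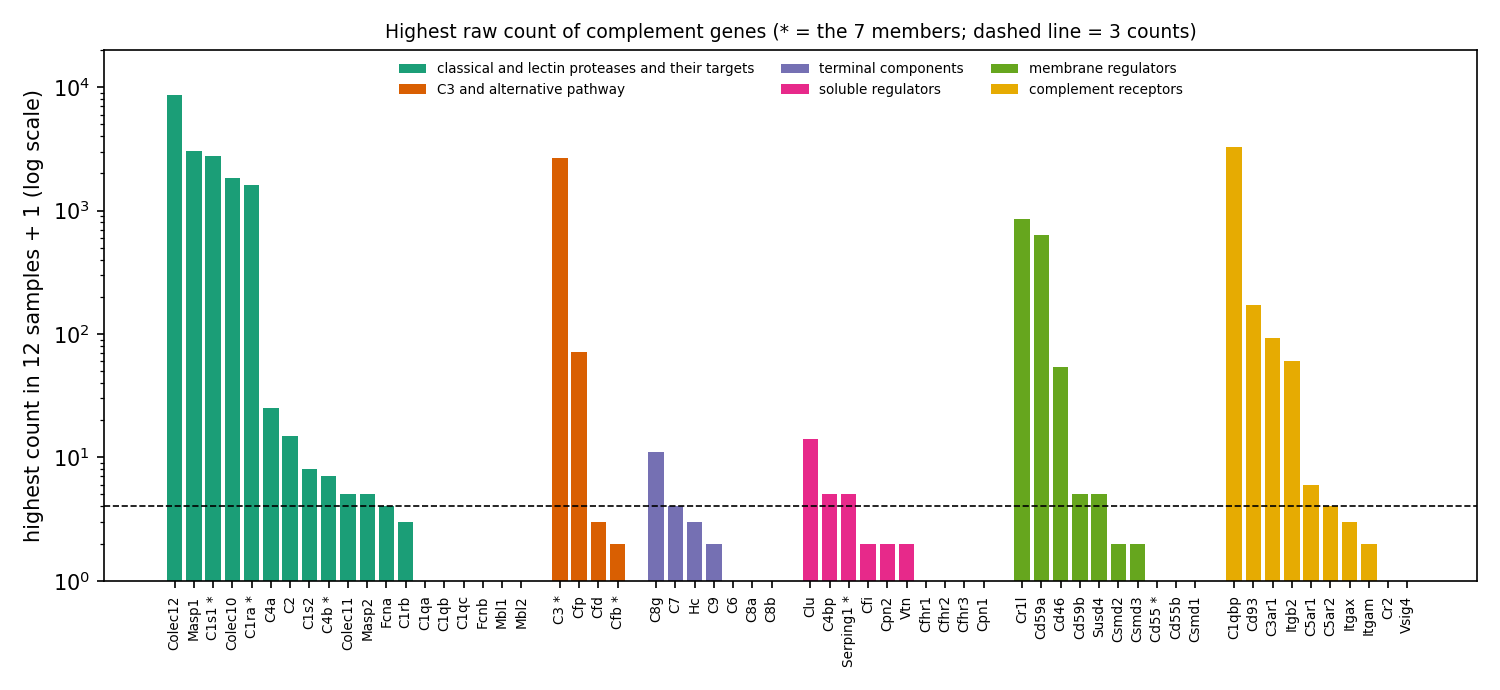
Highest count of each plotted complement gene over the 12 samples, plus 1, on a log axis, grouped and coloured by role, with members starred and a dashed line at 3 counts. C1ra, C1s1 and C3 stand with Colec12, Masp1, Colec10 and C1qbp at the top of the axis, and 33 genes of the wider list reach no more than 3 counts.

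Of the 17 tested genes of the wider list, 8 were lower and 4 higher with A1, with a median log2 difference of -0.20. With A1 + OVA 7 were lower and 3 higher, with a median of -0.29. Without the members, 5 of 14 were lower and 4 higher with A1, and 4 were lower and 3 higher with A1 + OVA, to be read against the 31.1% lower and 31.7% higher with A1 and the 27.9% lower and 29.7% higher with A1 + OVA among all tested genes. Between the treatments, 4 of 17 were higher with A1 + OVA than with A1, of which 3 were members, and 1 was lower. Among all tested genes 6.05% were higher and 6.81% lower in this comparison.

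Among recognition molecules and proteases, 4 of 6 tested genes fell with each treatment, among them the members C1ra and C1s1, and none rose, where 31.1% of all tested genes were lower with A1 and 27.9% with A1 + OVA. Colec10, a collectin that carries the MASP proteases, fell furthest of the tested complement genes. It was at 99.2 ± 6.28 CPM in control samples (SD, n = 4), 31.2 ± 1.03 with A1 and 21.6 ± 1.79 with A1 + OVA, 3.18-fold (adjusted p = 3.98e-16) and 4.59-fold (adjusted p = 8.69e-18) lower than control. Unlike the members, it was lower again with A1 + OVA than with A1, by a log2 difference of -0.53 (adjusted p = 2.08e-05). Colec12, a scavenger receptor collectin, fell from 485.9 CPM (468.1 to 513.9, n = 4) to 363.0 (352.3 to 372.7) with A1 (adjusted p = 6.71e-09) and 392.2 (374.6 to 408.0) with A1 + OVA (adjusted p = 7.55e-07). Masp1, a protease of the lectin pathway, was at 182.8 ± 3.99, 186.5 ± 4.20 and 177.4 ± 4.43 CPM and passed no test. C2, the partner of C4 in the convertase, reached 14 counts and passed no test either.

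In the alternative pathway, Cfp, the gene of properdin, which stabilises the convertase, was at 3.76 ± 0.21 CPM in control samples and fell to 2.67 ± 0.23 with A1 (adjusted p = 0.0166). With A1 + OVA it was at 3.24 ± 0.92 CPM, overlapping control (adjusted p = 0.294). Clu, the gene of clusterin, a soluble inhibitor of the terminal complex, had at most 13 counts and passed no test.

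The membrane regulators that were called were higher, 2 of 3 with A1 and 1 of 3 with A1 + OVA. Of all tested genes, 31.7% were called higher with A1 and 29.7% with A1 + OVA, so these few calls show no trait of the regulators. Cd59a, which blocks the membrane attack complex, rose from 29.7 ± 2.38 CPM to 37.4 ± 2.84 with A1 (adjusted p = 1.3e-04) and 37.0 ± 1.39 with A1 + OVA (adjusted p = 2.09e-04). Cr1l, the gene of the rodent convertase regulator Crry, was at 50.8 ± 2.81 CPM in control samples and 56.4 ± 4.49 with A1, a call (adjusted p = 0.02) whose groups overlapped. With A1 + OVA it was at 51.1 ± 0.39 CPM (adjusted p = 0.883). Cd46 had 13 to 53 counts and passed no test.

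Among complement receptors, C3ar1, the receptor for the C3a fragment of C3, rose while C3 fell. It was at 2.42 ± 0.52 CPM in control samples, 5.85 ± 0.79 with A1 (log2 difference 1.27, adjusted p = 2.04e-07) and 4.69 ± 0.32 with A1 + OVA (0.96, adjusted p = 1.55e-05). C1qbp, a mostly mitochondrial protein named for its binding to C1q, rose from 149.5 ± 3.94 CPM to 199.7 ± 1.00 and 202.1 ± 10.2 (adjusted p = 5.3e-09 and 2.97e-09). Itgb2, the beta chain of the leukocyte complement receptors, fell from 2.95 ± 0.37 CPM to 1.40 ± 0.42 with A1 (adjusted p = 6.91e-05) and was at 2.46 ± 0.31 with A1 + OVA (adjusted p = 0.186). Cd93 was at 10.1 ± 0.62, 8.77 ± 0.62 and 8.01 ± 0.57 CPM and passed only with A1 + OVA (adjusted p = 0.00277). C3ar1 and Itgb2 are leukocyte genes as well. The summed level of 12 macrophage markers, given above, was also higher with A1 than in every control sample. Most of that sum was Cd14, at 7.59 ± 0.16 CPM in control samples and 11.3 ± 0.96 with A1. Mrc1 rose from 1.48 ± 0.20 to 3.01 ± 0.44 CPM, but Cd68, at 1.52 ± 0.28 and 1.41 ± 0.24 CPM, was not called with A1. Ptprc and Tyrobp were at or near 0. The part of macrophages or other leukocytes in the receptor results was not tested.

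**Figure D4:**
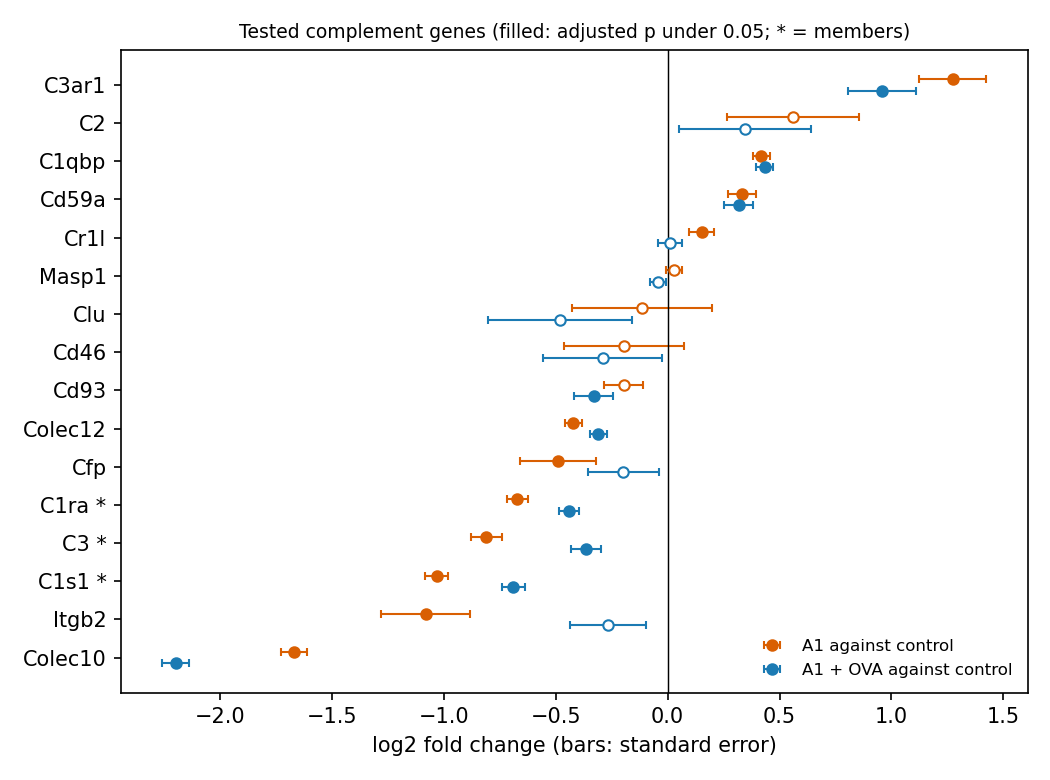
Log2 fold change with its standard error (x axis) of the tested complement genes described in the text (y axis) for A1 and A1 + OVA against control, with filled points for an adjusted p under 0.05 and members starred. C1ra, C1s1 and C3 lie left of 0 in both comparisons and nearer to 0 with A1 + OVA, while Colec10 lies further left with A1 + OVA.

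Complement genes are classically induced by interferon-gamma and by the acute phase cytokines, so genes of those programmes were set beside the members. Of 17 acute phase genes 10 were tested, and 6 were lower and 1 higher with each treatment, to be read against 31.1% lower and 31.7% higher with A1 and 27.9% and 29.7% with A1 + OVA among all tested genes. The 1 that rose was Lcn2, from 5.12 ± 0.47 CPM to 6.56 ± 0.34 with A1 (adjusted p = 0.0166) and 7.90 ± 1.28 with A1 + OVA (adjusted p = 1.04e-04), while Saa3 and Cp passed no test. These 3 genes are named after their values were seen. The largest falls with A1 were those of Serpina3g, a serpin, Ptx3, a pentraxin that binds C1q, Il6 and Tnfaip6. Ptx3 fell from 81.3 ± 1.20 CPM to 24.9 ± 0.44 with A1 (adjusted p = 1.64e-17) and 31.8 ± 1.71 with A1 + OVA (adjusted p = 3.29e-16), and it was higher with A1 + OVA than with A1 (adjusted p = 1.16e-04). Serpina3g fell from 15.2 ± 1.38 CPM to 3.85 ± 0.46 and 6.13 ± 1.06, and it too was higher with A1 + OVA than with A1 (adjusted p = 0.00348). Il6 was low in all groups, at 1.27 ± 0.21, 0.484 ± 0.15 and 0.805 ± 0.081 CPM, as was Tnfaip6 at 1.25 ± 0.47, 0.540 ± 0.23 and 0.464 ± 0.14 CPM, and both were called lower with each treatment, although Tnfaip6 overlapped between control and A1 samples.

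Of 20 genes for receptors and factors known to act on complement genes 19 were tested. With A1 12 were lower and 4 higher, and with A1 + OVA 9 were lower and 5 higher. The shares of all tested genes were 31.1% lower and 31.7% higher with A1, and 27.9% lower and 29.7% higher with A1 + OVA. Ifngr1, a chain of the interferon-gamma receptor, fell from 182.5 ± 3.23 CPM to 109.5 ± 4.05 and 115.6 ± 3.69. Its other chain, Ifngr2, named here after its values were seen, rose from 109.5 ± 6.02 CPM to 166.0 ± 3.88 with A1 (adjusted p = 1.54e-10) and 164.2 ± 8.64 with A1 + OVA (adjusted p = 2.52e-10). Osmr, Stat3 and Rela, also named after their values were seen, were called higher with both treatments, by log2 differences of 0.14 to 0.29. Il6st, the signalling chain of the interleukin-6 family receptors, fell from 638.7 ± 14.1 CPM to 396.7 ± 12.2 and 408.2 ± 8.72. Stat2 fell from 33.1 ± 3.20 CPM to 19.2 ± 2.81 and 25.1 ± 3.52, and was called higher with A1 + OVA than with A1 (adjusted p = 0.0149). Whether these falls bear on C1ra, C1s1 or C3 was not tested.

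The genes whose log2 CPM followed each member most closely over the 12 samples were found among 9091 genes. For C1s1 they were Tent5a (Pearson r = 0.990), Arhgef6 (0.989) and Frzb (0.988). For C1ra they were Antxr1 (0.991), Gsta4 (0.987) and Lonp2 (0.984), and for C3 Heatr5b (0.987), Plin4 (0.982) and Akap12 (0.979). No member was among the 3 closest genes of another. The 12 points fall into the 3 groups, and the correlations are a description with no test.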

How the data were processed

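The deposited files hold raw counts per gene, made by the authors from stranded, polyA-selected paired-end libraries (KAPA kit) with bcl2fastq 2.20, STAR 2.7 on GRCm38 and strand-specific featureCounts 2.0. Treatment of reads that match several genes is not given in the sources used here. Of 55487 identifiers 55227 matched the GENCODE annotation. Protein-coding genes that passed filterByExpr (11314) were tested with edgeR 4.0.16 in R 4.3.3 (TMM scaling, quasi-likelihood test, 1 fit over 12 samples, Benjamini-Hochberg adjustment, call at adjusted p under 0.05), after the code was tested on simulated data. DESeq2 1.42.0 and other filters, scalings and samples were tried as alternatives. Ratios were tested by exact permutation over samples.

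Groups came from the sample titles. The labels do not say whether replicates were separate cultures or animals, so p-values measure only the spread between these samples, which may be technical. Between replicate pairs the chi-square per degree of freedom, a ratio of the variance to that of counting noise, was 1.92 to 6.87. The members and lists were chosen with earlier results of these data known. Named were all members, tested complement genes, up to 4 called acute phase and inducer genes with the largest A1 difference, and for likeness the 3 genes closest to each member among those averaging a log2 CPM of 3 or more. Some genes that this rule names are not reported here.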

Additional observations from a re-analysis of the deposited data

Results flagged for a closer look

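C1s1 in the second control sample lay apart from its group, at 162.5 CPM against 145.0 to 146.3 CPM in the other 3 control samples. Cd59a in the fourth A1 + OVA sample did so too, at 39.1 CPM against 36.1 to 36.5 CPM in the other 3. These were 2 of 51 groups of 4 samples examined by Dixon's ratio, and chance marks about 1 in 20 groups. Without the second control sample C1s1 remained lower with both treatments.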

How the results depend on the processing

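The log2 differences of C1ra, C1s1 and C3 kept their direction and an adjusted p under 0.05 in all 3 comparisons under all changes of tool, scaling, filter, genes and samples, 108 values with 1 sample left out and 63 others. C1s1 with A1 ranged from -1.06 to -0.99, C1ra from -0.71 to -0.65 and C3 from -0.86 to -0.76. The threshold did change calls: when a call also needed an absolute log2 difference of at least 0.5, only 1 member was lower with A1 + OVA and 0 were higher with A1 + OVA than with A1. Under the same rule the wider complement list had 1 gene higher with A1, 1 higher and 3 lower with A1 + OVA, and 1 higher with A1 + OVA than with A1. With no filter on low counts, 5 genes of the list were higher with A1 + OVA. Leaving out 1 sample at a time gave 1 to 2 genes of the list lower with A1 + OVA than with A1, with 2 only without the third A1 sample. Samples of the 3 groups share replicate numbers, but deviations of same-numbered samples had a mean correlation of 0.022 over 12 pairs (-0.13 to 0.16), so they were not treated as pairs. With a replicate block, 8 complement genes were lower and 4 higher with A1 and the member calls were the same. The level per unshared length and the count ratios were added after seeing the data. Depth limits C4b, Serping1, Cfb and Cd55, for which no direction can be given.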
